A study of Mus musculus with 3 samples.

Results

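Immediate early genes and heat shock genes were followed through skin wound healing as a set of 35 genes, 25 immediate early and 10 heat shock, of the 32285 genes counted. The members were lists of gene symbols matched by Ensembl ID. The rule itself uses no measured value, but the lists were drawn up with earlier results of these data known. All 35 were found. The samples were skin wounds of C57BL/6J mice at Day 3, Day 7 and Day 14 after injury, with 1 single-cell library per day. The mice were males of 7 to 12 weeks, and tissue pooled from 4 wound samples went into a library. The study's methods describe full-thickness punches of the back, whereas the series description calls the wounds incisional. The punches were 4 mm wide. No treatment besides the wound is given for any library, and unwounded skin was not analysed here. Before capture, the tissue of all 3 libraries was digested with enzymes for 1 h at 37 °C, erythrocytes and debris were cleared, and no sort was applied.

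Immediate early genes are transcribed within minutes of a stimulus because the factors that act on them, such as serum response factor with its ternary complex partners and the cAMP response factor CREB, already wait in the cell. Their products include the FOS and JUN proteins, which pair to form the activator AP-1, the EGR zinc finger factors, and feedback proteins that end the response. Heat shock genes encode chaperones, which keep other proteins folded; heat and unfolded protein release heat shock factor 1, which binds heat shock elements in their promoters. Both groups are known to respond to injury in living skin, and both are also known to rise when tissue is digested warm to make a cell suspension. A wound library made in this way may hold RNA from both episodes, and without an unwounded or cold-digested library the part of each cannot be told apart.

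The count tables held 5158, 22924 and 16611 cell barcodes for Day 3, Day 7 and Day 14, with 38133650, 120940799 and 112713257 unique molecular identifiers (UMIs, each standing for 1 captured transcript). After filtering and removal of called doublets, 4360, 19590 and 13510 cells remained. Between 19 and 111 barcodes occurred in both libraries of a pair, at most 0.834% of the smaller library. Cells were clustered without the 35 genes and named from standard markers. A name such as fibroblast-like means only that the cluster reached a minimum score of these markers, which need not be among its leading genes. The 8 fibroblast markers summed to between 67994 and 128911 UMIs per 1000000 UMIs of the class (CPM) in the fibroblast-like cells, against 422 to 5107 CPM in the macrophage-like cells. Fibroblast-like cells numbered 408, 5912 and 6803 by day, and macrophage-like cells 2709, 9581 and 3259. Their median depths were 44189, 10308 and 9541 UMIs in fibroblast-like cells and 4053, 2540 and 3554 UMIs in macrophage-like cells. The Day 7 library carried more of Gm42418, an RNA that overlaps ribosomal RNA: 165837 CPM in macrophage-like cells, against 39238 at Day 3 and 94626 at Day 14. Ratios scaled without it were computed for fibroblast-like and macrophage-like cells only. In the other classes it was also highest at Day 7, at 116543 to 220758 CPM, against 12786 and 34092 CPM in neutrophil-like and dendritic cell-like cells at Day 3 and 64376 to 88099 CPM in the 5 classes compared at Day 14, and its part in their ratios was not tested.

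Levels below are CPM of a gene summed over all cells of a class in a library, with 95% Poisson intervals, and ratios are log2 of CPM with 95% intervals. The intervals cover counting error only. Because each day was 1 library, there was no replicate spread and no test, and a difference between days cannot be told apart from a difference between libraries. A gene was called different when its ratio reached at least 2-fold, among genes with a mean of at least 10 CPM over both groups. UMIs mark 3′ ends, so levels were not divided by transcript length and are compared between groups, not between genes.

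The summed immediate early level was lowest at Day 7 in both major classes. In fibroblast-like cells the 25 genes summed to 18264 CPM (18204 to 18324) at Day 3, 15116 CPM (15086 to 15146) at Day 7 and 18991 CPM (18958 to 19025) at Day 14. In macrophage-like cells the sums were 20728 CPM (20647 to 20809), 13764 CPM (13720 to 13808) and 17219 CPM (17147 to 17292). The 10 heat shock genes were also lowest at Day 7 in both classes, but highest at Day 14. Their sums were 4418, 4033 and 4798 CPM in fibroblast-like cells and 5445, 4517 and 5649 CPM in macrophage-like cells. As log2 ratios, the immediate early sum differed by -0.27 from Day 3 to Day 7 and by 0.33 from Day 7 to Day 14 in fibroblast-like cells, and by -0.59 and 0.32 in macrophage-like cells. The heat shock sum differed by -0.13 and 0.25 in fibroblast-like cells and by -0.27 and 0.32 in macrophage-like cells. The median of all tested genes was itself at -0.21 and -0.11 in fibroblast-like cells and at -0.13 and -0.10 in macrophage-like cells, so the Day 7 to Day 3 sums of heat shock genes and of fibroblast-like immediate early genes lay near that shift. Both ratios of a class use the same Day 7 library. The small fibroblast-like heat shock ratio from Day 3 to Day 7 changed sign under other scalings, to 0.08 by the median of ratios over genes.

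**Figure D1:**
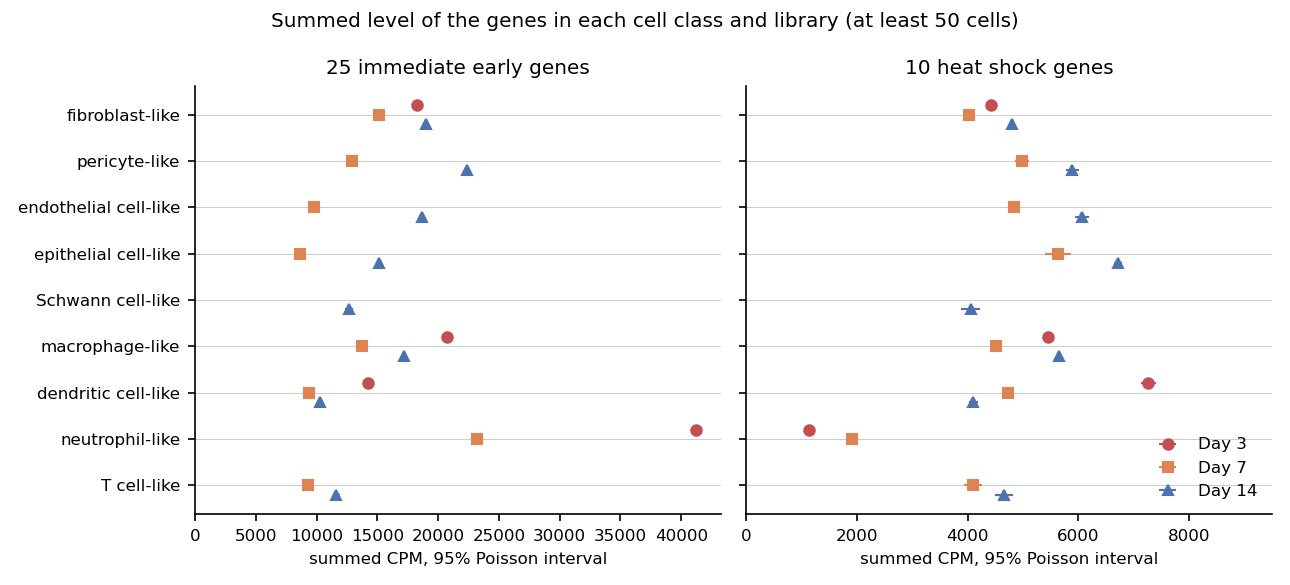
Summed CPM (x axis) of the 25 immediate early genes (left) and the 10 heat shock genes (right) in each cell class with at least 50 cells in a library (y axis); circles are Day 3, squares Day 7 and triangles Day 14, 1 library each, with 95% Poisson intervals. Neutrophil-like cells at Day 3 stand highest for immediate early genes (41226 CPM) and lowest for heat shock genes (1131 CPM).

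Single members moved in opposite directions behind these sums. From Day 3 to Day 7, 5 immediate early genes were at least 2-fold higher in fibroblast-like cells (Jun, Atf3, Ier2, Klf2 and Klf4), where 4.42% of all tested genes were. Another 5 were at least 2-fold lower (Fosl1, Egr2, Ier3, Zfp36 and Myc), where 8.97% of all genes were. In macrophage-like cells none was higher, against 2.41% of all genes, and 6 of the 24 that passed the filter were lower (Fosl2, Junb, Ier3, Ier5, Zfp36 and Maff), against 5.27%. Different clusters held most of the macrophage-like class on these days, and the same was true of the fibroblast-like class. The values within clusters follow further on. This macrophage-like split moved with the scaling: it was 3 higher (Jun, Egr1 and Egr3) and 3 lower (Ier3, Zfp36 and Maff) without the 50 most abundant genes or without Gm42418, 2 higher and 4 lower by the median of ratios, and 2 higher and 6 lower by the mean of each cell's own CPM. Ier3 was lower in both classes under every one of these scalings, and Zfp36 in macrophage-like cells under every one. From Day 7 to Day 14 the steps were small: Maff was at least 2-fold higher in both classes and no immediate early gene was lower, where 2.45% and 3.14% of all genes were higher and lower in fibroblast-like cells and 2.53% and 3.19% in macrophage-like cells. The call of Maff in macrophage-like cells lay at the threshold (log2 ratio 1.01) and was lost under several alternatives. Over the 25 genes, the median log2 ratio was -0.35 and then 0.38 in fibroblast-like cells and -0.29 and then 0.35 in macrophage-like cells.

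**Figure D2:**
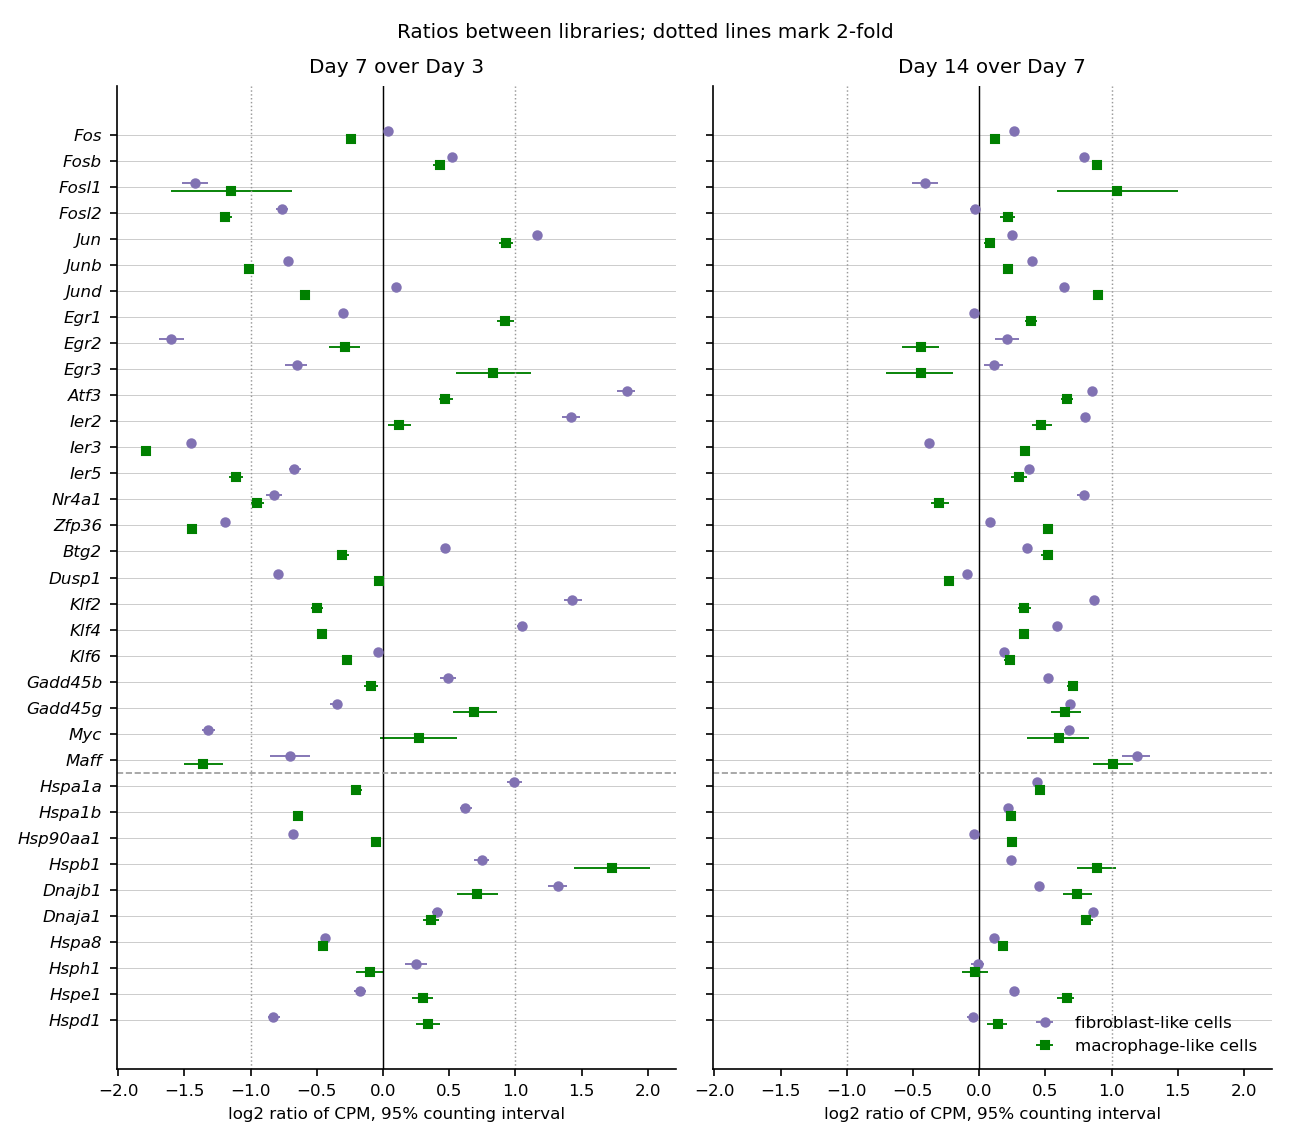
Log2 ratio of CPM (x axis) of each gene (y axis) from Day 3 to Day 7 (left) and from Day 7 to Day 14 (right) in fibroblast-like (circles) and macrophage-like cells (squares), with 95% counting intervals; dotted lines mark 2-fold and the dashed line parts immediate early (above) from heat shock genes. Ratios spread from -1.79 for Ier3 to 1.84 for Atf3 on the left, and most lie within 2-fold on the right.

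Among the FOS family, Fos itself, the partner of JUN in AP-1, stayed within 2-fold between days. It stood at 1606 CPM (1588 to 1624), 1652 CPM (1642 to 1662) and 1974 CPM (1963 to 1985) in fibroblast-like cells at Day 3, Day 7 and Day 14, and at 2085, 1763 and 1919 CPM in macrophage-like cells. Fosb, its close relative, was higher at each later day in both classes: 545, 780 and 1349 CPM in fibroblast-like cells and 475, 639 and 1180 CPM in macrophage-like cells. Fosl1, which encodes FRA1, a FOS protein known from migrating cells at wound edges, went the other way in fibroblast-like cells, with 78.0, 29.1 and 21.9 CPM. Its log2 ratio from Day 3 to Day 7 was -1.42 (-1.52 to -1.32). It was close to undetected in macrophage-like cells, at 6.94, 3.14 and 6.47 CPM, and did not pass the filter there. Fosl2, encoding FRA2, was highest at Day 3 in both classes, with 256, 150 and 147 CPM in fibroblast-like cells and 691, 303 and 352 CPM in macrophage-like cells.

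The 3 JUN genes differed from one another. Jun was lowest at Day 3, with 581 CPM (571 to 592) against 1300 CPM (1291 to 1309) and 1544 CPM (1535 to 1554) at Day 7 and Day 14 in fibroblast-like cells, a log2 ratio of 1.16 (1.13 to 1.19) for the first step. In macrophage-like cells the order was the same, at 347, 661 and 696 CPM, but the first step of 0.93 stayed under 2-fold. Junb, an AP-1 member induced by cytokine signals through STAT3, was instead highest at Day 3: 1724, 1044 and 1381 CPM in fibroblast-like cells and 4040, 2006 and 2333 CPM in macrophage-like cells. Its macrophage-like ratio of -1.01 (-1.03 to -0.99) sat at the threshold and came out under it when the 50 most abundant genes or Gm42418 were left out of the scaling and by the median of ratios. Jund, the JUN gene that is also expressed in resting cells, was highest at Day 14 in both classes, at 2085 CPM in fibroblast-like and 1767 CPM in macrophage-like cells. Its Day 3 and Day 7 levels were 1248 and 1340 CPM in fibroblast-like cells and 1426 and 947 CPM in macrophage-like cells.

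Atf3, a stress-induced partner of JUN proteins, had the highest first-step ratio of the 35 genes in fibroblast-like cells. Its level there was 115 CPM (110 to 120) at Day 3, 410 CPM (405 to 415) at Day 7 and 739 CPM (732 to 745) at Day 14, with a log2 ratio of 1.84 (1.77 to 1.90) for the first step. Macrophage-like cells held 279, 387 and 613 CPM of it. Maff, a small MAF protein that pairs with other leucine zipper factors, was scarce and lowest at Day 7, with 28.1, 17.3 and 39.4 CPM in fibroblast-like cells and 69.9, 27.3 and 55 CPM in macrophage-like cells. Its first step in macrophage-like cells was -1.36 (-1.50 to -1.21), and its second step in fibroblast-like cells was 1.19 (1.08 to 1.29).

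Of the EGR factors, Egr1, a zinc finger activator induced by growth factors, was abundant in fibroblast-like cells at every day, at 2104, 1707 and 1663 CPM. Macrophage-like cells had far less of it, 182, 345 and 454 CPM, so that it was lower at each later day in one class and higher in the other. Egr2, known in macrophages from alternative activation and in nerve from myelination, was at 92.4, 30.6 and 35.4 CPM in fibroblast-like cells and at 76.4, 62.5 and 46.1 CPM in macrophage-like cells. The fibroblast-like first step of Egr2 was -1.60 (-1.69 to -1.5), the lowest of the 25 genes in that class. Egr3 was at 85.5, 54.4 and 58.7 CPM in fibroblast-like cells and at 10.8, 19.2 and 14.1 CPM in macrophage-like cells.

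Klf2 and Klf4, zinc finger factors that restrain inflammation and growth, were higher at each later day in fibroblast-like cells. Klf2 stood there at 121, 327 and 600 CPM and Klf4 at 369, 764 and 1153 CPM, with first steps of 1.43 (1.37 to 1.5) and 1.05 (1.01 to 1.09). In macrophage-like cells both were instead lowest at Day 7, Klf2 at 533, 378 and 479 CPM and Klf4 at 660, 480 and 607 CPM. Klf6, a widely expressed relative, stayed within 2-fold in both classes, with 913, 888 and 1016 CPM in fibroblast-like cells and 1003, 833 and 974 CPM in macrophage-like cells.

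Ier3, a survival factor induced by NF-κB, had the lowest first-step ratio of all members in macrophage-like cells. There it went from 2400 CPM (2373 to 2428) at Day 3 to 695 CPM (685 to 705) at Day 7 and 886 CPM (870 to 903) at Day 14, a first step of -1.79 (-1.82 to -1.76). Fibroblast-like cells had 2486, 907 and 697 CPM, with a first step of -1.45 (-1.47 to -1.44). Ier2, a nuclear protein linked to cell migration, was instead higher at each later day, at 95.4, 255 and 444 CPM in fibroblast-like cells and 132, 143 and 199 CPM in macrophage-like cells. Ier5, which takes part in the control of heat shock factor 1, was highest at Day 3 in both classes: 330, 208 and 271 CPM in fibroblast-like cells and 512, 238 and 292 CPM in macrophage-like cells.

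Feedback and growth arrest genes end or limit such responses, and among them Zfp36 stood out. Zfp36 encodes tristetraprolin, which destabilizes cytokine mRNAs. Its level in fibroblast-like cells went from 2418 CPM (2397 to 2440) at Day 3 to 1061 CPM (1053 to 1069) at Day 7, with 1124 CPM at Day 14. In macrophage-like cells it was at 2543, 935 and 1342 CPM, a first step of -1.44 (-1.47 to -1.42) against -1.19 (-1.21 to -1.17) in fibroblast-like cells, where it came out under 2-fold without the 50 most abundant genes and by the median of ratios. Dusp1, a phosphatase that switches off MAP kinases, was at 1772, 1022 and 959 CPM in fibroblast-like cells and at 1883, 1847 and 1574 CPM in macrophage-like cells. Btg2, an antiproliferative p53 target, stayed within 2-fold, at 380, 527 and 677 CPM in fibroblast-like and 488, 394 and 563 CPM in macrophage-like cells. Of the growth arrest genes of the Gadd45 family, which answer DNA damage and stress, Gadd45b was at 140, 197 and 282 CPM and Gadd45g at 276, 216 and 348 CPM in fibroblast-like cells. The macrophage-like levels were 366, 344 and 562 CPM for Gadd45b and 32.4, 52.3 and 82.3 CPM for Gadd45g.

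Myc, the growth regulator, and Nr4a1, an orphan nuclear receptor, complete the immediate early list. Myc was at 317, 127 and 203 CPM in fibroblast-like cells, with a first step of -1.32 (-1.37 to -1.27). Macrophage-like cells held 11.4, 13.7 and 20.8 CPM of it. Nr4a1 was at 183, 104 and 179 CPM in fibroblast-like cells and at 475, 246 and 201 CPM in macrophage-like cells.

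To show promoters of feedback genes, those of Zfp36 and Dusp1 were taken because they hold the letters named next, and the RefSeq sequence of 250 bases before the transcription start is printed below, 5′ to 3′ along the gene. RefSeq promoter windows of build GRCm38.p6, from 250 bases before to 50 after the start, were found for 28 of the 35 genes and not for Fosl1, Egr1, Egr3, Ier2, Myc, Hsp90aa1 and Hspa8. Capitals mark a CArG box, the site of serum response factor, in Zfp36 (chr7:28379229-28379478, minus strand, 58 bases before the start) and a cAMP response element, TGACGTCA, in Dusp1 (chr17:26508473-26508722, minus strand, 143 bases before the start).
Zfp36: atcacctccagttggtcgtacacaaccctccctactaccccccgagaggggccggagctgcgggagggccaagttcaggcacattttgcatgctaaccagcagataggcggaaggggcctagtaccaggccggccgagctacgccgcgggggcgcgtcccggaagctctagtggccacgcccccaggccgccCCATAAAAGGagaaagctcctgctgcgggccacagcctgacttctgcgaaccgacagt
Dusp1: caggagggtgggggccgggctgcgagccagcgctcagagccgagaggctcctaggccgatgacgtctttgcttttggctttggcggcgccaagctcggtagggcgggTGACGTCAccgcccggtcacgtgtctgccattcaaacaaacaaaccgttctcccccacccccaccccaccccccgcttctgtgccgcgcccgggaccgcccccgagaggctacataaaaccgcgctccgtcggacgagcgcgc
A CArG box occurred on either strand in 1.63% of 32851 windows and in those of Egr2 and Zfp36 among the 20 immediate early genes matched. The cAMP response element occurred in 1.79% of windows and in those of Btg2, Dusp1 and Maff, and the AP-1 letters TGANTCA in 7.81% of windows and in none of the matched members. These matches describe letters in a window and are not measured sites.

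**Figure D3:**
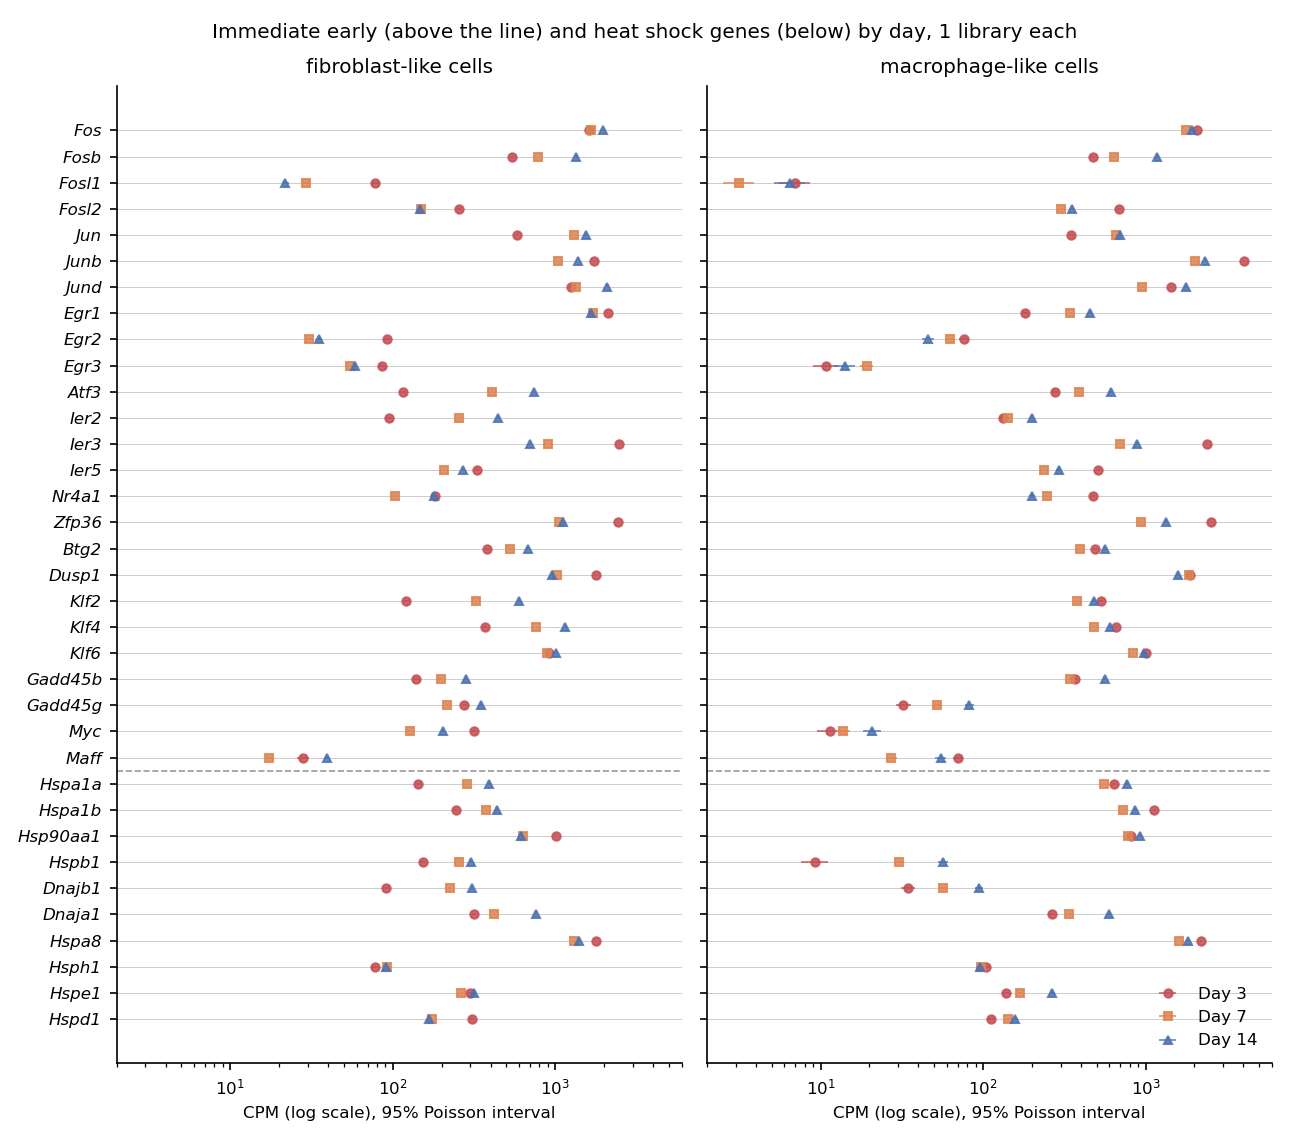
CPM (log x axis) of each of the 35 genes (y axis) in fibroblast-like (left) and macrophage-like cells (right) at Day 3 (circles), Day 7 (squares) and Day 14 (triangles), 1 library each, with 95% Poisson intervals; the dashed line parts immediate early (above) from heat shock genes. In fibroblast-like cells Ier3 and Zfp36 are highest at Day 3 (2486 and 2418 CPM) while Atf3, Klf2 and Klf4 are highest at Day 14 (739, 600 and 1153 CPM).

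Over the whole class, no heat shock gene was at least 2-fold lower between days in fibroblast-like or macrophage-like cells. Of all genes, 8.97% and 5.27% were lower in the first step and 3.14% and 3.19% in the second. From Day 3 to Day 7 only Dnajb1 was at least 2-fold higher in fibroblast-like cells, with Hspa1a just under the threshold, and only Hspb1 in macrophage-like cells, against 4.42% and 2.41% of all genes. From Day 7 to Day 14 none was higher, against 2.45% and 2.53%. With 10 genes, counts of 0 or 1 are near these shares. Their median log2 ratio was 0.33 and then 0.23 in fibroblast-like cells and 0.12 and then 0.35 in macrophage-like cells, while the sums were below 0 in the first step. Hspa8 alone made up between 29.4% and 40.3% of the heat shock UMIs in these groups, and without it the first-step sums differed by 0.04 in fibroblast-like and -0.16 in macrophage-like cells. The promoters of 4 members are printed because they hold letters found in most of the matched heat shock genes, those of the heat shock element. Capitals mark a pair of its units, GAANNTTC or TTCNNGAA, in 250 bases before the start of Hspa1a (chr17:34972157-34972406, minus strand), Hspa1b (chr17:34959239-34959488, minus strand), Hspb1 (chr5:135887669-135887918, plus strand) and Hspe1 (chr1:55087898-55088147, plus strand).
Hspa1a: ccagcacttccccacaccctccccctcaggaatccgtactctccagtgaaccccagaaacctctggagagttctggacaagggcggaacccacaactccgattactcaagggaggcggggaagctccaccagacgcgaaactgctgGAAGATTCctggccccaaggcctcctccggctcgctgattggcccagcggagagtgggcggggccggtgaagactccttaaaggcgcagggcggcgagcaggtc
Hspa1b: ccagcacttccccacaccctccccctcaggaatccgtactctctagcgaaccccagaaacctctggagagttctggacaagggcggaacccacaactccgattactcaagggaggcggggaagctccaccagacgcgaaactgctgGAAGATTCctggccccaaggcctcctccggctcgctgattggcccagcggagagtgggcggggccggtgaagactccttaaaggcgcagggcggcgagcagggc
Hspb1: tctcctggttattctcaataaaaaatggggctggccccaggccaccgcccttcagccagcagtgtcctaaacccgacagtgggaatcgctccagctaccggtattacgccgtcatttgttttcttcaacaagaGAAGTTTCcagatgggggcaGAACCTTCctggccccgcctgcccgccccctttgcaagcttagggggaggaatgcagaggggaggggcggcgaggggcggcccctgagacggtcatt
Hspe1: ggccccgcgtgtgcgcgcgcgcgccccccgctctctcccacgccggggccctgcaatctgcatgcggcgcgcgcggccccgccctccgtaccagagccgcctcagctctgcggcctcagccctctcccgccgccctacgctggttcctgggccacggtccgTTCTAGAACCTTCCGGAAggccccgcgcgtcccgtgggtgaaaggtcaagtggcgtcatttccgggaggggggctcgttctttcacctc
The pair lay 104 bases before the start in Hspa1a and in Hspa1b, 117 and 97 bases before it in Hspb1, and in Hspe1 3 overlapping pairs lay between 89 and 79 bases before it. It was found in 7 of the 8 heat shock genes matched, in 3 of the 20 immediate early genes (Fosl2, Jun and Egr2) and in 15.1% of all windows. A row of 3 alternating GAA and TTC units with 2 bases between neighbours, which includes the pair, was in Hsph1, Hspe1 and Hspd1 and in 0.603% of windows. The Hspa1a and Hspa1b windows were identical at 296 of 300 positions, and the Hspe1 and Hspd1 windows shared 285 bases because these 2 genes start in opposite directions from a common stretch.

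Hspa1a and Hspa1b encode the inducible HSP70 and are near-identical neighbours, so how reads were split between them is uncertain. Both were lowest at Day 3 in fibroblast-like cells. Hspa1a was at 144 CPM (139 to 150), 287 CPM (283 to 292) and 391 CPM (386 to 396), and Hspa1b at 244, 374 and 437 CPM. Macrophage-like cells had more of both, with 640, 558 and 768 CPM of Hspa1a and 1133, 728 and 862 CPM of Hspa1b. Together the pair summed to 388, 662 and 828 CPM in fibroblast-like cells and to 1773, 1286 and 1630 CPM in macrophage-like cells. This sum does not depend on how counted UMIs were split, and whether reads matching both genes were counted was not examined. The first step of Hspa1a in fibroblast-like cells, 0.99 (0.94 to 1.05), lay just under 2-fold.

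In fibroblast-like cells the other cytosolic chaperones Hspa8 and Hsp90aa1 were instead highest at Day 3. Hspa8, the HSC70 of resting cells, was at 1773, 1307 and 1409 CPM in fibroblast-like cells and at 2197, 1612 and 1825 CPM in macrophage-like cells. Hsp90aa1, the stress-responsive cytosolic HSP90, was at 1013, 632 and 616 CPM in fibroblast-like cells and at 813, 784 and 929 CPM in macrophage-like cells. Hsph1, an HSP110 that acts as exchange factor for HSP70, stayed within 2-fold, with 77.4, 91.9 and 91.4 CPM in fibroblast-like cells and 104, 97.2 and 95.4 CPM in macrophage-like cells.

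The co-chaperones that load HSP70 were higher at each later day in both classes. Dnajb1, an HSP40, was at 90.7 CPM (86.6 to 95), 226 CPM (222 to 230) and 309 CPM (305 to 313) in fibroblast-like cells, a first step of 1.32 (1.25 to 1.39). In macrophage-like cells it was at 34.6, 56.8 and 94.7 CPM. Dnaja1, another HSP40, was at 316, 420 and 759 CPM in fibroblast-like cells and at 265, 339 and 595 CPM in macrophage-like cells.

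Hspb1, the small heat shock protein HSP27 (HSP25 in the mouse), was at 153, 256 and 302 CPM in fibroblast-like cells. Its macrophage-like levels were 9.26 CPM (7.62 to 11.1), 30.6 CPM (28.6 to 32.8) and 56.6 CPM (52.5 to 60.9), a first step of 1.73 (1.44 to 2.02). RNA of other cells moved with that step: the 8 fibroblast markers, none of them at 0, summed in macrophage-like cells to 0.621%, 3.26% and 3.96% of their fibroblast-like level by day, and Hspb1 to 6.05%, 11.9% and 18.7% of its own. The 8 epithelial markers summed there to 1.65, 12.1 and 182 CPM, with Krt5, Krt1, Krt17 and Dsp at 0 at Day 3. After thinning each cell to 500 UMIs, 0.221%, 1.34% and 1.87% of macrophage-like cells had an Hspb1 UMI, against 0.115% and 1.47% of neutrophil-like cells at Day 3 and Day 7, whose median depths were 1223 and 708 UMIs. The 2 classes thus had low shares on both days, and no difference in Hspb1 expression is read from them. As CPM, the neutrophil-like level was 0.858 at Day 3, below the macrophage-like 9.26. The part of RNA from other cells in the macrophage-like step was not tested. Without thinning the macrophage-like shares were 1.44%, 4.91% and 9.02%.

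Of the mitochondrial chaperonin pair, Hspd1 (HSP60) was at 309, 174 and 167 CPM and its partner Hspe1 (HSP10) at 298, 265 and 316 CPM in fibroblast-like cells. In macrophage-like cells Hspd1 was at 112, 143 and 157 CPM and Hspe1 at 138, 169 and 267 CPM.

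Within a library, fibroblast-like and macrophage-like cells passed through the same digestion and the same run, so they were also set against each other. At every day Fosl1, Egr1, Egr3, Gadd45g and Myc were at least 2-fold higher in fibroblast-like cells and Fosl2 was at least 2-fold lower. At Day 7 the Fosl2 ratio of -1.01 and the Egr2 ratio of -1.03 lay at the threshold, and under other settings they ranged from -1.13 to -0.93 and from -1.15 to -0.95. Myc differed most at Day 3, with a log2 ratio of 4.79 (4.55 to 5.05), followed by 3.20 and 3.29 at the later days, and Egr1 differed by 3.53, 2.31 and 1.87. At Day 3, 5 of the 25 immediate early genes were higher and 7 lower (Fosl2, Junb, Atf3, Nr4a1, Klf2, Gadd45b and Maff), where 24.8% of all genes were higher and 23.3% lower. At Day 7 the counts were 5 higher and 3 lower (Fosl2, Egr2 and Nr4a1) against 19.3% and 20.9% of all genes, and at Day 14 they were 7 higher, with Jun and Ier2 added, and 1 lower against 19.9% and 21.0%. By the median of ratios over genes the Day 7 split was 6 higher, with Jun added, and 1 lower, without Fosl2 and Egr2, and by the mean of each cell's own CPM the Day 14 split was 6 higher and 0 lower, without Jun and Fosl2. For Atf3 and Klf2 the Day 3 difference was not there later, with log2 ratios of -1.28, 0.08 and 0.27 for Atf3 and -2.14, -0.21 and 0.33 for Klf2.

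Among heat shock genes, Hspb1 and Dnajb1 were at least 2-fold higher in fibroblast-like cells at every day. Hspb1 differed by log2 ratios of 4.05, 3.07 and 2.42, and Dnajb1 by 1.39, 1.99 and 1.71. Hspe1 and Hspd1 were higher at Day 3 only (1.12 and 1.46), and Hspa1a and Hspa1b were at least 2-fold lower at Day 3 (-2.15 and -2.22). At Day 7 and Day 14 the HSP70 pair lay just inside 2-fold, at -0.96 and -0.98 for both genes. With Gm42418 left out of the scaling, both passed 2-fold on those days too, which brought the split from 2 higher and 0 lower to 2 and 2. Of all genes, 24.8% were higher and 23.3% lower at Day 3, 19.3% and 20.9% at Day 7 and 19.9% and 21.0% at Day 14, so 2 of 10 is near the share of all genes.

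Clusters shared between days were compared in the same way. Of the fibroblast-like clusters, 2 had at least 50 cells at both Day 3 and Day 7, 1 led by Saa3 and Cxcl5 and 1 by cell cycle genes. The lower and the higher log2 ratio of the pair were 1.06 and 1.20 for Jun, 1.07 and 1.84 for Atf3, and 1.16 and 1.59 for Ier2. They were -1.42 and -1.16 for Fosl1, -1.85 and -1.36 for Egr2, -1.25 and -1.12 for Ier3, -1.31 and -1.09 for Zfp36, and -1.56 and -1.17 for Myc. Both clusters thus passed 2-fold for 8 of the 11 members called over the class, while Klf2 (0.92 and 1.18), Klf4 (-0.02 and 1.26) and Dnajb1 (0.47 and 1.83) passed it in 1 of them. Most fibroblast-like cells of the later libraries belonged to clusters that held few Day 3 cells. Clusters led by H19 and Tnn, by Akr1c18 and Pla1a, and by Mgp and Cilp held 2580, 1208 and 447 of the 5912 cells at Day 7 but 6, 1 and 2 at Day 3. The last of these held 4000 of the 6803 cells at Day 14. From Day 7 to Day 14 the fibroblast-like ratio of Maff ranged from -0.33 to 1.56 over 5 shared clusters, with 2 of them below 0 and 2 at 2-fold or more. Klf2 ranged there from -0.10 to 0.68 (0.87 over the class), with 1 below 0, and Klf4 from -0.80 to 0.44 (0.59 over the class), with 2 below 0. Nr4a1 ranged from -0.57 to 1.17 (0.79 over the class), with 3 below 0 and 1 at 2-fold or more. A cluster led by Prlr, with Bmp4 among its leading genes, held 718 of the 6803 fibroblast-like cells at Day 14. The paper uses Bmp4 as a marker of mesenchymal cells. This cluster was named fibroblast-like with a marker score of 0.34, and at Day 14 it had 1560 CPM of Nr4a1 and 1260 CPM of Ier2. In macrophage-like cells, 1788 of the 2709 cells at Day 3 were in a cluster led by Arg1 and Chil3 that held 479 of the 9581 at Day 7. Of the 5 macrophage-like clusters shared between Day 3 and Day 7, Zfp36 was at least 2-fold lower in 4, Junb and Ier5 in 3, and Ier3 and Maff in 2. Fosl2 was at least 2-fold lower in 0 of them, with ratios from -0.86 to 2.51, and Hspb1 was at least 2-fold higher in 2, with ratios from -0.88 to 1.86. In these 5 clusters, the immediate early sum was lower at Day 7 in 4, by -0.83 to -0.43 on the log2 scale. The exception was a cluster led by haemoglobin genes with 108 cells at Day 3 and a median of 918.5 UMIs, where the sum was higher by 0.74. From Day 7 to Day 14 the immediate early sum was higher in each of 6 macrophage-like clusters, by 0.09 to 0.45, and in each of 5 fibroblast-like clusters, by 0.02 to 0.29. In that step the heat shock sum ranged from -0.21 to 0.43 in the macrophage-like and from -0.07 to 0.33 in the fibroblast-like clusters. From Day 3 to Day 7 it was lower in the same 4 macrophage-like clusters, by -0.80 to -0.29, and higher by 0.23 in the haemoglobin-led cluster. Its 2 fibroblast-like values were 0.14 and -0.31. In these macrophage-like clusters Hspa1b was at least 2-fold lower in 2, and Hspa1a and Hsph1 in 1 each. At least 2-fold higher were Hspb1 in 2 and Hspa1a, Dnajb1, Dnaja1 and Hsph1 in 1 each.

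Neutrophil-like cells had the highest immediate early level and the lowest heat shock level of all groups. Their 25 immediate early genes summed to 41226 CPM (40858 to 41597) at Day 3 and 23239 CPM (22976 to 23504) at Day 7, over 868 and 1637 cells with median depths of 1223 and 708 UMIs. At Day 3 they held 8268 CPM of Junb, 6101 CPM of Dusp1, 5814 CPM of Ier3 and 2911 CPM of Btg2, each the highest among the 20 groups of at least 50 cells. The 10 heat shock genes summed to 1131 and 1914 CPM. Between the days, 7 immediate early genes were at least 2-fold lower (Fosl1, Junb, Egr3, Ier3, Ier5, Klf6 and Maff) and 3 higher (Jun, Klf4 and Gadd45g), where 8.44% of all genes were lower and 16.2% higher. Ier3 went from 5814 to 1576 CPM, a log2 ratio of -1.88 (-1.96 to -1.81), while Fos stood at 1895 and 1904 CPM. Myc, too low for the filter, had 3 UMIs at Day 3 and 22 at Day 7.

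Of the 10 heat shock genes, 7 were at least 2-fold higher at Day 7 in neutrophil-like cells, against 16.2% of all genes. None was at least 2-fold lower, against 8.44%. The list's median log2 ratio was 1.56 and that of the 25 immediate early genes -0.63, against 0.02 over all genes. Different clusters held most of the class on the 2 days: 705 of the 868 cells at Day 3 were in one and 1582 of the 1637 at Day 7 in another. Within the cluster that held most Day 7 cells, which had 163 cells at Day 3, the heat shock sum was 1613 and 1923 CPM and the immediate early sum 42109 and 23026 CPM. Within the other, which had 55 cells at Day 7, they were 1058 and 1768 CPM and 41092 and 26521 CPM. In the first of these clusters Hspe1 (39.0 and 37.4 CPM), Dnajb1 (58.5 and 70.6 CPM) and Hspd1 (26.0 and 46.5 CPM) stayed under 2-fold. Jun (559 and 590 CPM) and Gadd45g (45.5 and 49.8 CPM) did so too, while the other called members of both lists passed it. In the other cluster Hspd1, Fosl1, Egr3, Ier5, Klf6 and Maff stayed under 2-fold. Hspa1a went from 18.9 CPM (11.8 to 28.6) to 108 CPM (91.1 to 128), Hspa1b from 34.3 to 127 CPM, Hspd1 from 12.9 to 44.4 CPM and Hspe1 from 14.6 to 36.7 CPM. Dnajb1 went from 31.8 to 71.7 CPM and Hsph1 from 3.43 to 25 CPM. Hspb1 rested on 1 UMI at Day 3 and 36 UMIs at Day 7, a log2 ratio of 5.03 (2.46 to 10.37). Both Hspb1 and Hsph1 lay under 10 CPM at Day 3 and passed the filter only through their Day 7 level. Fibroblast markers moved with these steps, from 839 to 10465 CPM, which was 1.23% and 9.04% of their fibroblast-like level, with none of the 8 at 0. Macrophage markers moved the other way, from 6601 to 4824 CPM, which was 70.9% and 36.7% of their macrophage-like level, with none of the 9 at 0. Gm42418 went from 12786 to 220758 CPM. The Hspb1 level amounted to 0.561% and 10.9% of that in fibroblast-like cells. How much of the fibroblast and macrophage marker RNA came from other cells was not tested. Nor was the part of such RNA in the heat shock ratios.

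In the vessel classes, which had enough cells at Day 7 and Day 14, immediate early genes were higher at Day 14. Endothelial cell-like cells (242 and 236 cells) summed to 9827 CPM (9685 to 9971) and 18714 CPM (18487 to 18942), and 11 genes were at least 2-fold higher (Fosb, Jund, Egr1, Egr3, Atf3, Ier2, Ier3, Klf4, Gadd45b, Myc and Maff), where 5.19% of all genes were. No member was at least 2-fold lower, against 9.01% of all genes. Gadd45b went from 107 to 431 CPM and Ier3 from 892 to 1842 CPM. This class joined a cluster led by Fabp4 and Selp (185 and 188 cells) with one led by Ccl21a and Nts (57 and 48 cells). Within the first, the immediate early sum was 10786 and 16754 CPM, Gadd45b 103 and 199 CPM and Ier3 1128 and 2419 CPM. Of the called genes, Jund, Egr3, Ier3 and Myc passed 2-fold within it, and the others did not. Pericyte-like cells (185 and 429 cells) summed to 12913 CPM (12710 to 13119) and 22343 CPM (22121 to 22567). Here 15 genes were at least 2-fold higher, against 7.07% of all genes, and none lower, against 13.4%. Gadd45b went from 386 to 1508 CPM and Junb from 1454 to 3183 CPM in these cells, while Jun stood at 1178 and 1235 CPM. Malat1 and Neat1, nuclear RNAs whose share goes up in cells that have lost cytoplasm, moved with these steps, summing to 16560 and 29890 CPM in endothelial cell-like and to 16164 and 39941 CPM in pericyte-like cells. Their part in the ratios was not tested. Dnaja1 was at least 2-fold higher in both classes, at 442 and 936 CPM in endothelial cell-like and 427 and 1094 CPM in pericyte-like cells. The list medians were 0.97 for immediate early and 0.05 for heat shock genes in endothelial cell-like cells, where that of all genes was -0.16, and 1.08 and 0.00 in pericyte-like cells, where it was -0.19. Hspb1 was called in endothelial cell-like cells (435 and 1262 CPM) and Dnajb1 in pericyte-like cells (165 and 464 CPM), whereas Hspa1a was lower in both classes, at 347 and 298 CPM and at 500 and 312 CPM.

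Dendritic cell-like cells (242, 1205 and 538 cells) had the highest heat shock sum, 7266 CPM (7137 to 7398) at Day 3, against 4724 and 4106 CPM later. Hspa8 was at 2870, 1784 and 1607 CPM and Hspa1b at 1593, 710 and 456 CPM. Hspa1b was the only heat shock gene called at least 2-fold lower from Day 3 to Day 7. Immediate early genes summed to 14214, 9369 and 10292 CPM. From Day 3 to Day 7 Jun was at least 2-fold higher, against 4.13% of all genes, and Fosl2, Junb, Ier3, Zfp36 and Maff lower, against 7.79%. In that step the list medians were -0.35 and -0.32 against -0.14 over all genes. Zfp36 went from 1881 to 803 CPM and Ier3 from 753 to 182 CPM. The class joined clusters led by Cd209a (181 and 810 cells on these days), by Ccl22 and Ccr7 (57 and 295) and by Siglech and Ccr9 (4 and 100). Within the Cd209a-led cluster all called genes but Junb (2892 and 1473 CPM) passed 2-fold. In the Ccl22-led cluster only Junb and Zfp36 did, while Jun (186 and 273 CPM), Ier3 (194 and 144 CPM), Fosl2, Maff and Hspa1b stayed under it. From Day 7 to Day 14 Jund and Myc were higher, where 2.72% of all genes were higher and 8.44% lower. Fosl2, Junb, Ier3, Zfp36 and Maff were thus called lower from Day 3 to Day 7 in macrophage-like and dendritic cell-like cells. Of them, Junb, Ier3 and Maff were also called lower in neutrophil-like cells. In macrophage-like cells Fosl2 was at least 2-fold lower in 0 of 5 shared clusters, and the Fosl2 and Junb calls were lost under some alternatives. All these ratios use the same Day 3 and Day 7 libraries. The part of Gm42418 in the dendritic cell-like and neutrophil-like ratios was not tested, and the share of all genes lower in several classes at once was not computed.

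T cell-like cells (287 and 291 cells at Day 7 and Day 14) had immediate early sums of 9267 and 11636 CPM. The name rests on the marker score of the clusters, and 1 of them, with 94 and 63 cells, was led by Il2rb, Xcl1, Nkg7 and Gzma, genes that natural killer cells also express, with none of the 8 T cell markers among its 10 leading genes. Fosb and Klf4 were at least 2-fold higher at Day 14, as were Dnajb1 and Dnaja1, where 8.86% of all genes were higher and 10.7% lower. Clusters of this class differed between the days: 1 that held 3 cells at Day 7 had 69 at Day 14, with 1385 CPM of Dnaja1, 387 CPM of Dnajb1 and 610 CPM of Klf4. Another 2 clusters had at least 50 cells on both days, and their values are given with the Il2rb-led cluster first. Dnaja1 was at 612 and 1035 CPM and at 688 and 1024 CPM. Dnajb1 was at 103 and 147 CPM and at 83.2 and 122 CPM, and Klf4 at 190 and 200 CPM and at 189 and 292 CPM. Each of these steps was under 2-fold. Fosb was at 146 and 341 CPM, above 2-fold, and at 401 and 606 CPM, under it. Over the class, Dnaja1 reached 1147 CPM at Day 14 from 546 CPM, its highest level of the 20 groups. Epithelial cell-like cells were 50 at Day 7 and 703 at Day 14, with immediate early sums of 8616 and 15173 CPM. Hspb1, which differentiating keratinocytes are known to express, had its highest levels there, 1376 CPM (1264 to 1496) and 2454 CPM (2409 to 2499), and made up 36.5% of the heat shock UMIs at Day 14. After thinning to 500 UMIs, 46.9% (43.2% to 50.7%) of epithelial cell-like cells at Day 14 had an Hspb1 UMI, against 9.45% of fibroblast-like and 1.87% of macrophage-like cells. Schwann cell-like cells, 125 at Day 14, had the highest Egr2 of all groups, 128 CPM, a gene known to drive myelination.

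**Figure D4:**
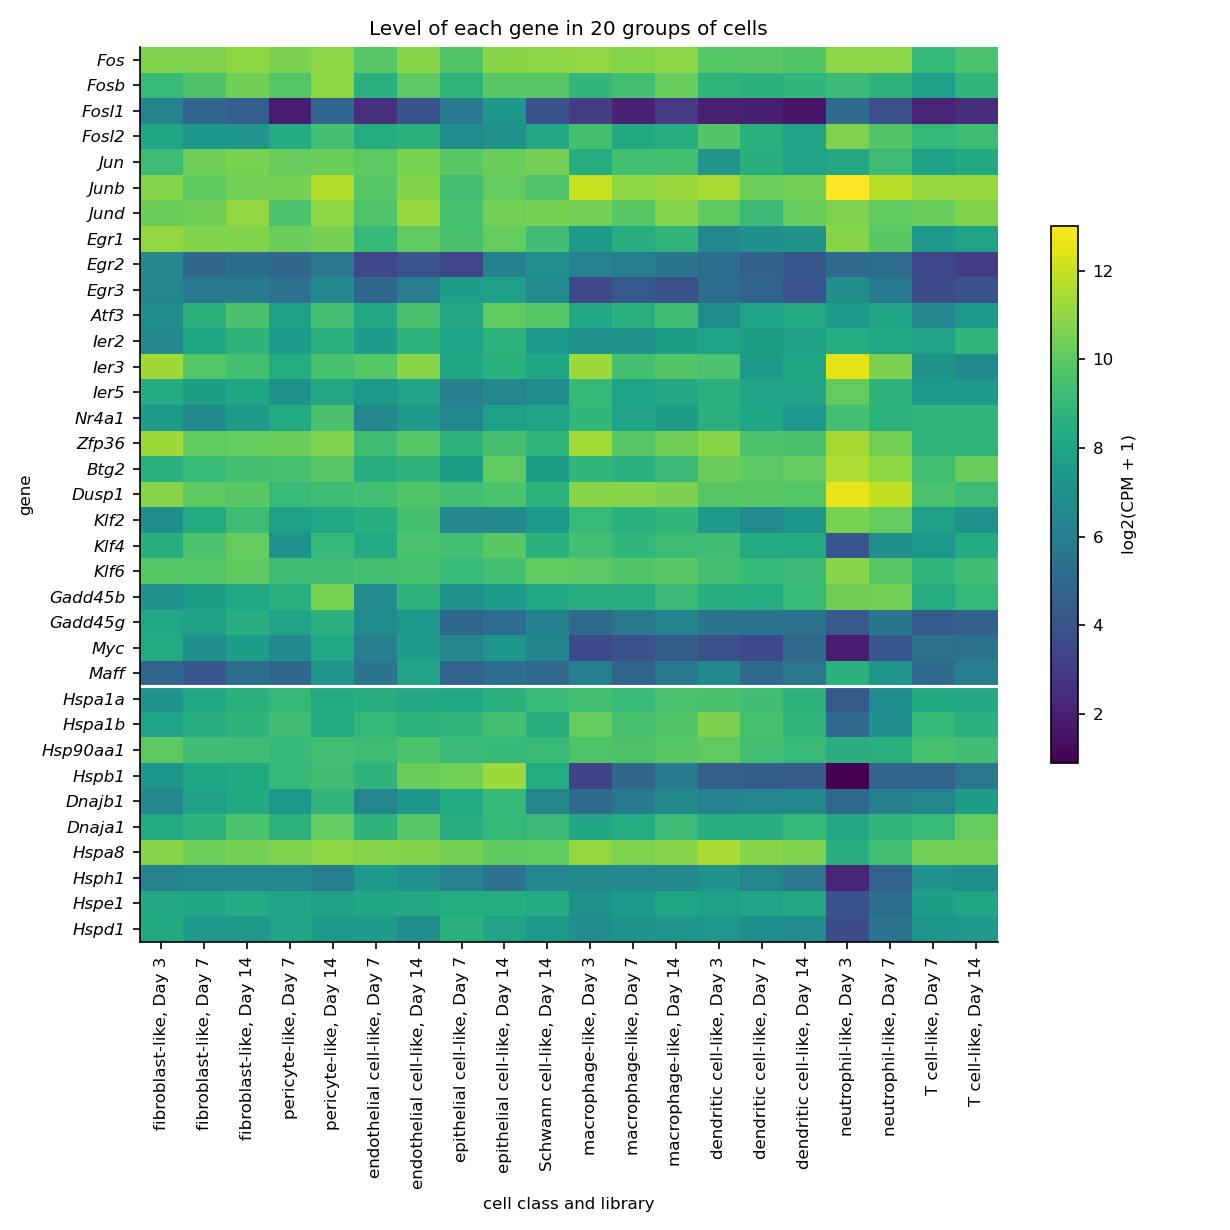
Colour gives log2(CPM + 1) of each of the 35 genes (rows) in 20 groups of cells (columns, a class in a library with at least 50 cells), 1 library per day; the white line parts immediate early (above) from heat shock genes. Junb is brightest in neutrophil-like cells at Day 3 (8268 CPM), where Hspb1 is darkest (0.858 CPM), and Hspb1 is brightest in epithelial cell-like cells at Day 14 (2454 CPM).

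The share of cells with a UMI was taken for single members. At a common depth of 500 UMIs, Fos was found in 46.6% (41.6% to 51.5%), 45.4% (44.2% to 46.7%) and 45.0% (43.9% to 46.2%) of fibroblast-like cells by day. The shares were 47.8%, 48.5% and 50% of macrophage-like and 45.0% and 53.7% of neutrophil-like cells. Jun was found in 20.6%, 42.9% and 44.3% of fibroblast-like cells and in 12.8%, 24.5% and 21.4% of macrophage-like cells. Of the inducible HSP70 pair, Hspa1a was found in 6.86%, 12.9% and 13.8% of fibroblast-like cells and 15.6%, 18.8% and 20% of macrophage-like cells, against 1.04% and 4.15% of neutrophil-like cells. Without thinning, Fos was found in 95.6%, 92.4% and 88.5% of fibroblast-like cells.

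How often 2 members were found in the same cell was taken for 8 pairs. These shares were taken at 2000 UMIs per cell, over 395, 5800 and 6428 fibroblast-like cells, leaving out 13, 112 and 375 shallower ones; over macrophage-like cells 2128, 6381 and 2569 were used and 581, 3200 and 690 left out. Cells of a library are not replicates, and these are descriptions. Hspa1b was found in 67.2%, 65.1% and 64.8% of fibroblast-like cells with Hspa1a and in 10.9%, 24.3% and 21.0% of those without. How the assignment of reads between these near-identical genes bears on this was not tested. Dnajb1 was closer, in 12.5%, 32.6% and 40.9% of fibroblast-like cells with Hspa1a and 16.0%, 25.1% and 30.1% of those without. Hsp90aa1 was found in 79.2%, 64.8% and 61.7% with Hspa8 and in 72%, 55.9% and 54.1% without. Jun was found in 59.2%, 85.6% and 85.6% of fibroblast-like cells with Fos and in 31.9%, 50.4% and 42.8% of those without. Egr1 was found in 94.3%, 89.3% and 88.8% with Fos and in 71.7%, 61.5% and 57.1% without. Across the groups, Hspa1a was found in 18.4%, 35.1% and 39.8% of fibroblast-like cells with Fos and in 10.6%, 22.9% and 14.4% of those without. Hspa8 was in most cells at this depth, with Fos (93.3%, 88.3% and 89.8%) or without (94.7%, 85.8% and 88.3%), so little difference could show. Hspa1a was found in 19.2%, 35.6% and 39.1% of fibroblast-like cells with Jun and in 13.0%, 19.8% and 14.1% of those without. In macrophage-like cells these shares were 47.0%, 49.5% and 60.8% with Jun and 20.9%, 25.2% and 19.1% without. With Fos in place of Jun, Hspa1a was found there in 32.4%, 41.5% and 39.9%, against 17.9%, 23.8% and 19.4% without Fos. The other pairs are not given for macrophage-like cells.

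Other genes of the same pathways were counted in the same way. Of 40 other immediate early genes, 33 passed the filter from Day 3 to Day 7 in fibroblast-like cells. Of these, 6 were at least 2-fold lower and none higher, against 8.97% and 4.42% of all genes, from Cebpb at -1.41 (811 to 305 CPM) to Per1 at 0.79. In macrophage-like cells 6 of 34 were lower and 1 higher, against 5.27% and 2.41%, from Cebpb at -1.83 (5494 to 1546 CPM) to Ccn1 at 1.90 (4.96 to 18.6 CPM). From Day 7 to Day 14, 4 of 32 were higher in fibroblast-like cells, against 2.45%, led by Cebpd at 1.72 (318 to 1048 CPM). In macrophage-like cells 2 of 34 were higher and 2 lower in that step, against 2.53% and 3.19%, with Rel at 1.24 and Dusp6 at -1.58. The Ccn1 value in macrophage-like cells moved with the fibroblast markers given above.

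Of 30 other heat shock response genes, 28 passed the filter from Day 3 to Day 7 in fibroblast-like cells, and 3 were higher and 1 lower against 4.42% and 8.97% of all genes, from Cryab at 1.34 (28.2 to 71.3 CPM) to Hspa9 at -1.0 (183 to 91.1 CPM). Cryab, the small heat shock protein αB-crystallin, was again the highest from Day 7 to Day 14, at 1.62 (71.3 to 219 CPM). All 8 subunits of the cytosolic chaperonin CCT had ratios below 0 in both fibroblast-like steps, from -1.03 to -0.43 and then from -0.66 to -0.23, and 1 of them, Cct7, was called. In macrophage-like cells 1 of the 25 that passed was called in each step, against 2.41% and 2.53% of all genes higher, Serpinh1 at 1.46 and Ubb at 1.12, and Serpinh1, the collagen chaperone, is itself abundant in fibroblasts. Among 8 regulators, Srf was called lower in fibroblast-like cells from Day 3 to Day 7 (17.5 to 7.45 CPM) and Elk3 in macrophage-like cells from Day 7 to Day 14 (81.1 to 35.7 CPM), and Hsf1 was between 9.01 and 13.5 CPM in macrophage-like cells at Day 3 and Day 7. Neither cold-inducible gene was called in these steps: Rbm3 was at 537, 363 and 278 CPM and Cirbp at 8.10, 16.1 and 21.8 CPM in fibroblast-like cells. Of 12 other stress genes, 9 passed the filter in fibroblast-like cells from Day 3 to Day 7. Mt1 and Mt2 were called lower, against 8.97% of all genes, Mt2 at -1.86 (5175 to 1422 CPM). In macrophage-like cells 10 passed in each step. Gclm and Gdf15 were called higher in the first, against 2.41%, Gdf15 at 1.96 (58.3 to 227 CPM). In the next step Gclm and Hmox1 were called lower there, against 3.19%, Gclm at -1.54 (102 to 35.1 CPM). Mt1 was called higher in that step, against 2.53%, at 1.38 (752 to 1952 CPM). Malat1 was at 6677, 19038 and 33598 CPM in fibroblast-like cells and at 15965, 20888 and 25369 CPM in macrophage-like cells, and its part in the ratios was not tested.

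Over the 20 groups of cells, log2(CPM + 1) of Fos was most like that of App, Cryzl1, Fam76a, Cd63 and Socs3 among 8584 genes, members apart, with Pearson r from 0.77 to 0.69. Its nearest member was Egr2 (0.74), close to Fosb (also 0.74), while its r with Hspa1a was -0.14. Hspa1a was most like Nfu1, Ccdc50, Rabep1, Tmem192 and Osgep (0.92 to 0.90), and among members Hspa1b stood at 0.95. Hspe1 and Hspd1, which share a promoter region, stood at 0.91, but neither was among the 20 genes nearest to the other. The nearest genes were Lsm7 for Hspe1 and Lars for Hspd1, each at 0.98. The 20 points come from 3 libraries and share their depth and Gm42418 share, so these values are descriptions. From the lowest to the highest group, Hsp90aa1 spanned 2.99-fold (355 to 1061 CPM), Klf6 4.02-fold (468 to 1879 CPM) and Fos 4.21-fold (495 to 2085 CPM). Hspb1 had the widest span, from 0.858 to 2454 CPM, followed by Myc, from 2.57 to 317 CPM, and their lowest levels rested on 1 and 3 UMIs.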

How the data were processed

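Single cells of whole wound tissue were captured with 10x 3′ chemistry (version 3.1), 1 library per day. The deposited values are UMI counts per gene and cell that the authors made with Cell Ranger 6.0.0 on build mm10, per the submitters' processing notes. The members and gene lists were chosen with earlier results of these data known. Symbols were matched within the count tables by their Ensembl IDs, and no column of other samples was present.

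Kept cells had 200 or more genes, 500 or more UMIs and no more than 10% mitochondrial UMIs. Doublets were called per library from the share of simulated doublets among each cell's neighbours, which marked 92, 1978 and 962 cells (2.07%, 9.17% and 6.65%) for Day 3, Day 7 and Day 14, and were removed. Clustering used 2000 variable genes without the 35 members, 30 principal components, 15 neighbours and Leiden resolution 1 (Python 3.11.15, scanpy 1.11.5, scikit-learn 1.9.0, python-igraph 0.11.9). Clusters were named from standard markers. The naming settings (a second split at resolution 0.3 and a minimum marker score of 0.25) were set after the clusters had been seen, and clusters that stayed unnamed were left out.

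UMIs were summed per class and library. CPM had exact Poisson intervals, ratios exact conditional binomial intervals and shares of cells Clopper-Pearson intervals, each at 95% (SciPy 1.17.1, matplotlib 3.10.9). No test was possible with 1 library per day. A gene was called at 2-fold or more with a mean of at least 10 CPM. All 35 members are named, each further list is given by its counts with its highest or lowest genes, and likeness to Fos and Hspa1a is given as the 5 nearest genes; genes named beyond this were chosen after their values were seen. On simulated counts for 4 comparisons the ratio intervals held the true value for 94.5% to 97.0% of 200 changed genes and for 95.1% to 95.6% of unchanged ones, over 7763, 7358, 7250 and 7157 genes. The simulation drew counting error alone, the error these intervals assume, so coverage near 95% was built in. It cannot show whether the intervals suit the real sums, which pool differing clusters. Alternatives changed the scaling, the cell filters, the doublet step, the resolution, the class rule, the genes used to cluster, the filter on low values and the most abundant member.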

Additional observations from a re-analysis of the deposited data

How the results depend on the processing

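Alternatives were run for fibroblast-like and macrophage-like cells. Of 112 recomputed list sums, 109 kept their direction, and the exceptions were the fibroblast-like heat shock sum from Day 3 to Day 7 under 3 of them. Of 280 recomputed ratios between days of called members, 263 kept the call, 17 came under 2-fold and 0 reversed. Among the calls between days, those lost under some alternative were Zfp36 in fibroblast-like cells from Day 3 to Day 7, Fosl2, Junb and Ier5 in macrophage-like cells in that step, and Maff in macrophage-like cells from Day 7 to Day 14. Between the classes, Fosl2 and Egr2 at Day 7 and Fosl2 and Jun at Day 14 were lost under some. Where no reason is given, the cause was not tested. No paired analysis was possible because each day is 1 library; for the same reason no library was left out.

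The log2 ratios of sums are given here in the order immediate early and heat shock, from Day 3 to Day 7 and then from Day 7 to Day 14. Scaled without the 50 most abundant genes, they were -0.08, 0.06, 0.31 and 0.23 in fibroblast-like cells and -0.36, -0.04, 0.26 and 0.26 in macrophage-like cells. This scaling moved the median of all genes too, from Day 3 to Day 7 from -0.21 to -0.01 in fibroblast-like and from -0.13 to 0.12 in macrophage-like cells. By the median of ratios, which sets the median gene to 0, the sums were -0.06, 0.08, 0.44 and 0.36, and -0.46, -0.14, 0.42 and 0.42. Scaled without Gm42418, an alternative chosen after seeing the data, they were -0.18, -0.04, 0.27 and 0.19, and -0.39, -0.07, 0.20 and 0.20. Without the most abundant member of each list, the heat shock sum was 0.04 and 0.31 in fibroblast-like and -0.16 and 0.40 in macrophage-like cells, and the immediate early sum was 0.34 in the second step of both classes and -0.51 in the first macrophage-like step.

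By the mean of each cell's own CPM, the second steps were 0.35 and 0.28 in fibroblast-like cells, and the macrophage-like immediate early sum was -0.57 and 0.31 and its first heat shock step -0.09. With at most 5% mitochondrial UMIs, the immediate early sum was -0.32 and 0.34 in fibroblast-like cells and the first heat shock step -0.16 in macrophage-like cells. With at most 20%, the second macrophage-like immediate early step was 0.34. With doublets kept, the fibroblast-like values were -0.26, -0.11, 0.31 and 0.23 and the second macrophage-like immediate early step was 0.31. At Leiden resolution 2 the second fibroblast-like immediate early step was 0.34. With the class of each cell taken from its own marker UMIs, the second heat shock step was 0.21 in fibroblast-like and the second immediate early step 0.31 in macrophage-like cells. With an unnamed cluster that carried fibroblast markers counted as fibroblast-like, an alternative also chosen after seeing the data, the second heat shock step was 0.21.

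Counts of members at 2-fold or more held within 1.5 times in 182 of 202 cases. Each count adds higher and lower calls, so a count that held can hide a changed split or changed genes. From Day 3 to Day 7 the macrophage-like immediate early split was 0 higher and 6 lower as reported. Without the 50 most abundant genes it was 3 higher and 3 lower, which leaves the count unchanged. The fibroblast-like heat shock count from Day 3 to Day 7 was 2, with Hspa1a added, in place of 1 under both planned rescalings of the library totals, without Gm42418, at 5% mitochondrial UMIs, with doublets kept and by own marker UMIs. The macrophage-like immediate early count from Day 7 to Day 14 went from 1 to 0 without the 50 most abundant genes, without Gm42418, by own CPM, at 5%, at resolution 2, by own marker UMIs and without the haemoglobin-led cluster (chosen after seeing the data). It was 2 by the median of ratios and with no filter on low values. By own CPM the fibroblast-like immediate early count from Day 7 to Day 14 was 2 in place of 1, and at 5% the macrophage-like heat shock count in that step was 1 in place of 0. Between the classes, the heat shock count was 4 in place of 2 at Day 14 at 5% and without Gm42418, and at Day 7 without Gm42418.

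Depth limits the scarce members: Fosl1, Egr3 and Myc in macrophage-like cells lay near the 10 CPM filter, and neutrophil-like ratios rest on shallow cells.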
